A study of Homo sapiens with 4 samples.

Results

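GPNMB and 8 regulators of the MiT/TFE transcription factor axis were described in RNA sequencing data from a human lung squamous carcinoma cell line at absorbed radiation doses of 0 Gy and 30 Gy. The 9 genes were found by name in the deposited table, 9 of 58735 listed genes: GPNMB, MITF, TFEB, TFE3, FLCN, FNIP1, FNIP2, RRAGC and RRAGD. GPNMB was picked for its fall between the doses, so the changes of the 9 genes in this contrast are given as a description. Calls and intervals of these genes are listed, but no p-values. Each dose had 2 libraries, with replicates numbered 1 and 2, and 0.2 ug of Trizol-extracted total RNA entered each library. The cells named in the series description are SK-MES-1 and its radiotherapy-resistant counterpart SK-MES-1-RR. The labels tie neither line to a dose, nor do they give the schedule of the 30 Gy, the time of harvest, or whether replicates were separate cultures. The p-values given for other genes therefore measure the spread between these libraries, which may be technical.

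The MiT/TFE factors MITF, TFEB and TFE3 are basic helix-loop-helix leucine zipper proteins that bind E-box DNA and switch on lysosomal and autophagy genes. When amino acids are plentiful, Rag GTPases on the lysosome bring these factors to the kinase mTORC1, which phosphorylates them so that 14-3-3 proteins hold them in the cytoplasm. Folliculin (FLCN), together with FNIP1 or FNIP2, acts on the Rag subunits RagC and RagD and promotes that step. GPNMB is a transmembrane glycoprotein of lysosomes and melanosomes and a known MiT/TFE target gene. Since much of this control acts on the location of the proteins, RNA levels do not measure the activity of the factors.

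Recovered depth was 15920861 to 17261121 reads per library. The labelled squamous identity had limited support in the marker genes: TP63, the squamous lineage factor, stood at 3.19 to 4.14 FPKM (a fragment count divided by gene length and by sequencing depth), while KRT5 and DSG3 were at 0 in all 4 libraries. Of 13379 genes with at least 1 FPKM in at least 2 libraries, limma called 19.8% at an adjusted p under 0.05, 10.8% higher and 9.06% lower at 30 Gy, and the doses did not overlap for 65.2%. Without either 0 Gy library limma called 0 genes in the whole table (3422 without replicate 1 and 3460 without replicate 2 at an unadjusted p under 0.05), so every call named here, of GPNMB as of the other genes, is lost in those fits. In bulk RNA, fewer cells expressing a gene and less RNA per cell cannot be told apart.

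GPNMB was the member with a large difference between the doses. It is annotated at 7:23235967-23275108 on the plus strand of hg38 (ENSG00000136235). Its level was 18.6 and 18.4 FPKM at 0 Gy, from 1957 and 1890 reads, and 3.10 and 2.997 FPKM at 30 Gy, from 299 and 288 reads. Both 30 Gy libraries lay far below both 0 Gy libraries, and libraries of the same dose were close to each other. The means were 18.5 ± 0.148 and 3.05 ± 0.0733 FPKM (SD, n = 2 each), a ratio of 6.07, and the log2 change of FPKM + 1 was -2.27 ± 0.07 (SE). This was the fall at rank 9 among the 13379 tested genes. In the order of expression levels over the tested genes, GPNMB moved from ranks 2497 and 2502 at 0 Gy to ranks 9311 and 9425 at 30 Gy.

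**Figure D1:**
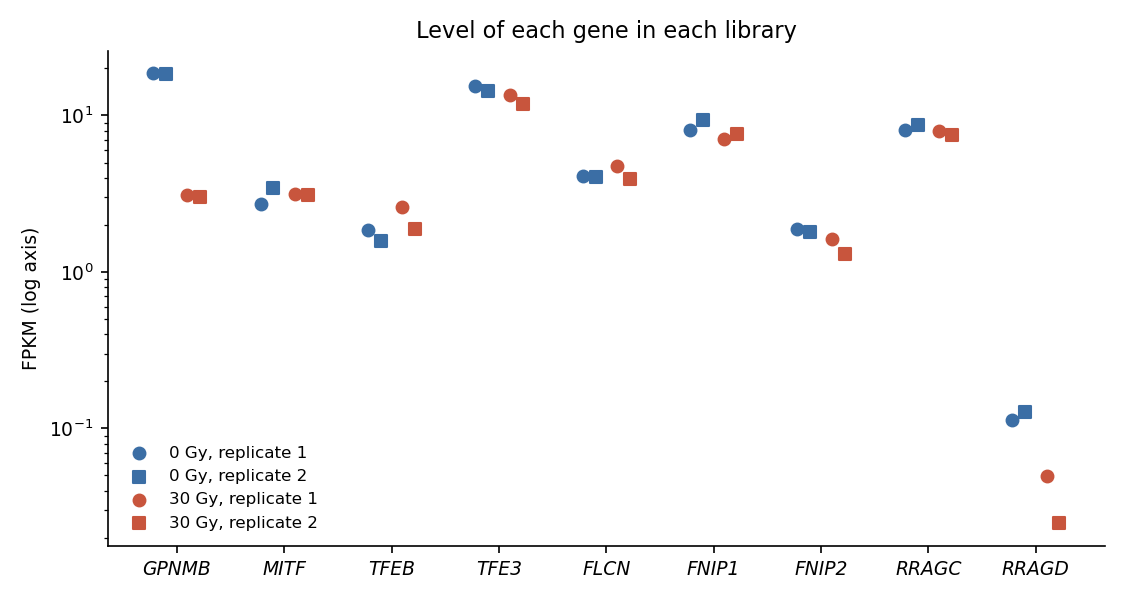
Level of the 9 genes in each of the 4 libraries, in FPKM on a log axis; circles are replicate 1, squares are replicate 2, blue is 0 Gy and red is 30 Gy. GPNMB drops from 18.6 and 18.4 to 3.10 and 2.997 FPKM, and RRAGD lies under 0.13 FPKM in every library.

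The transcription factors themselves had smaller differences in RNA level than GPNMB. TFE3 (X:49028726-49043486, minus strand), a factor expressed in most cell types, stood at 15.3 and 14.3 FPKM at 0 Gy and 13.5 and 11.8 at 30 Gy. MITF (3:69739435-69968337, plus strand), the factor that also directs melanocyte development, stood at 2.73 and 3.42 FPKM at 0 Gy and 3.14 and 3.11 at 30 Gy. TFEB (6:41683978-41736259, minus strand), long studied as a regulator of lysosome formation, stood at 1.86 and 1.57 FPKM at 0 Gy and 2.60 and 1.88 at 30 Gy. The doses overlapped for MITF. For TFE3 the 30 Gy libraries were lower without overlap, and for TFEB they were higher without overlap, by a margin of 1.86 against 1.88 FPKM.

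The log2 change was -0.22 for TFE3 with a 95% interval of -0.44 to 0.01, 0.02 for MITF (-0.27 to 0.32) and 0.25 for TFEB (-0.15 to 0.64), and limma called none of these 3 factors. TFE3 made up most of the family's RNA, with 76.9% and 74.2% of the summed FPKM of the 3 factors at 0 Gy and 70.2% and 70.3% at 30 Gy. The sum itself was 19.9 and 19.3 FPKM at 0 Gy and 19.2 and 16.8 at 30 Gy. The ratio of GPNMB to that sum was 0.935 and 0.953 at 0 Gy and 0.161 and 0.179 at 30 Gy, lower at 30 Gy without overlap. TFEC, the remaining family member, had 2 to 4 reads per library. MITF has 12 start sites of protein-coding transcripts in GENCODE v29 and TFEB has 13, and the gene-level FPKM does not separate them.

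The folliculin complex was described next. FLCN (17:17212212-17237188, minus strand) stood at 4.12 and 4.05 FPKM at 0 Gy and 4.78 and 3.94 at 30 Gy, with overlapping doses and a log2 change of 0.07 (95% interval -0.20 to 0.34). FLCN overlaps MPRIP on the opposite strand, which was expressed at 13.1 to 13.8 FPKM, and the strand setting of the counting is not given in the sources used here, so reads from their shared stretch cannot be told apart. On its own strand FLCN overlaps AC055811.2 (0 to 0.0695 FPKM) and AC055811.3 (0.168 to 0.600 FPKM). FNIP1 overlaps AC008695.1 on its own strand, listed at 0 in every library. How reads in these shared stretches were assigned is not given either. FNIP1 (5:131641714-131797063, minus strand) stood at 8.04 and 9.31 FPKM at 0 Gy and 7.07 and 7.66 at 30 Gy. FNIP2 (4:158769138-158908049, plus strand) stood at 1.87 and 1.80 FPKM at 0 Gy and 1.62 and 1.31 at 30 Gy. Both FNIP genes were lower at 30 Gy without overlap, each with a log2 change of -0.21 and with intervals of -0.45 to 0.04 for FNIP1 and -0.54 to 0.12 for FNIP2. FNIP1 was the more abundant partner in every library, with 81.1% to 85.4% of the summed FPKM of the pair.

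The Rag subunits RagC and RagD are alternatives at the same position of the Rag heterodimer, and RRAGC carried nearly all of their RNA. RRAGC (1:38838198-38859823, minus strand) stood at 8.10 and 8.70 FPKM at 0 Gy and 7.93 and 7.47 at 30 Gy, lower at 30 Gy without overlap, with a log2 change of -0.11 (95% interval -0.31 to 0.08). It overlaps AL139260.2 on the same strand, listed at 0 in every library, and how reads in their shared stretch were assigned is not given. RRAGD (6:89364636-89412270, minus strand), itself a known MiT/TFE target, had 10 and 11 reads at 0 Gy and 4 and 2 reads at 30 Gy and was below the filter. Its summed reads were 21 against 6, a rate ratio of 3.28 with an exact 95% interval of 1.28 to 9.93 that covers counting error only. RRAGC made up 98.6% of the summed FPKM of the pair at 0 Gy, and 99.4% and 99.7% at 30 Gy.

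Of the 9 genes, 8 were tested, and limma called 1 lower (GPNMB) and 0 higher, beside 19.8% of all tested genes. At an unadjusted p under 0.05 the counts were also 1 and 0, beside 5049 of 13379 tested genes. voom called 1 lower and 0 higher. With voom, 4 members were lower and 0 higher at an unadjusted p under 0.05, beside 5554 of 13379 tested genes. Since the choice of GPNMB used this contrast, nothing is read from these counts. In 6 of the 8 tested genes the doses were apart without overlap, beside 65.2% of all tested genes. By level per gene length, the order at 0 Gy was GPNMB, TFE3, FNIP1, RRAGC, FLCN, MITF, FNIP2, TFEB and RRAGD, in which FNIP1 and RRAGC, and FNIP2 and TFEB, overlapped in range. At 30 Gy the order was TFE3, RRAGC, FNIP1, FLCN, MITF, GPNMB, TFEB, FNIP2 and RRAGD, in which RRAGC and FNIP1 overlapped. GPNMB passed from the first to the sixth place.

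**Figure D2:**
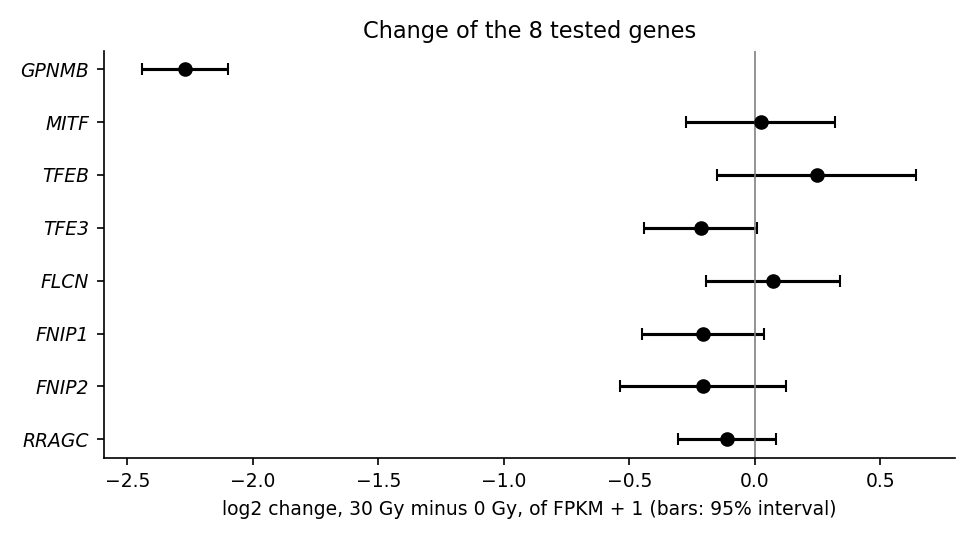
Log2 change of FPKM + 1 (30 Gy minus 0 Gy) of the 8 tested genes from the limma fit over all genes, with 95% intervals as bars. GPNMB lies at -2.27, and the intervals of the other 7 genes include 0.

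The promoters were searched for the E-boxes that MiT/TFE proteins are known to bind, a property not used to choose the genes. Windows of 250 bases before the RefSeq start sites (GRCh38.p14) were available for 8 members (13 windows), and RRAGD had none. CACGTG, the palindromic core of the lysosomal CLEAR element, TCACGTG, which contains it, and TCATGTG, the M-box, were searched on both strands. CACGTG was found upstream of FNIP1 and RRAGC, beside 6.34% of all 35116 windows and 11.3% of the 9206 tested genes with a window. At each of these sites the longer TCACGTG was also present, beside 3.31% of windows and 6.62% of tested genes. TCATGTG was found at 2 sites upstream of GPNMB and at 1 site upstream of the second FNIP2 start, beside 2.52% of windows and 1.99% of tested genes. A match is a description of letters and not evidence of binding.

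The sites are shown in 30 bases each to set the M-box of GPNMB, also present at FNIP2, beside the palindromic E-box of FNIP1 and RRAGC. Sequences read 5′ to 3′ on the strand of the gene, and capitals mark the match, which is the reverse complement of TCATGTG (GPNMB, FNIP2) or of TCACGTG (FNIP1, RRAGC).
GPNMB, chr7:23246641-23246670, plus strand, match 123 bases before the start: tgagtcataagCACATGAgttgtaagaggt
GPNMB, chr7:23246702-23246731, plus strand, match 62 bases before the start: cttaataccatCACATGAtcctccccgagg
FNIP1, chr5:131797174-131797203, minus strand, match 175 bases before the start: cccgcccctgcCACGTGAcgggacccgcca
FNIP1, chr5:131797093-131797122, minus strand, match 94 bases before the start: ccgcgcgccgcCACGTGAtgcggcccccct
RRAGC, chr1:38859866-38859895, minus strand, match 112 bases before the start: ggtgattccggCACGTGAcggggcaccacc
FNIP2, chr4:158805686-158805715, plus strand, match 142 bases before the start: tgacactggctCACATGAgagccattaaga
The GPNMB start in RefSeq is at 7:23246775, inside the gene interval of the deposited table, so the GPNMB sites lie within some longer GENCODE transcripts. The window upstream of GPNMB had 38.8% G and C, against 73.6% for RRAGC and 69.6% for FNIP1. No match to any of the 3 motifs was present in the windows of MITF, TFEB, TFE3 or FLCN.

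The tested genes nearest to GPNMB on chromosome 7 had small differences between the doses. They were NUPL2 (8.05 ± 0.482 and 8.20 ± 0.213 FPKM at 0 and 30 Gy), 54.1 kb away, and MALSU1 (12.5 ± 1.05 and 12.7 ± 0.499), 62.8 kb away, with log2 changes of 0.02 and 0.03. Distances here run from the start of the deposited gene interval, 7:23235967, and not from the RefSeq start. Of 22 tested genes starting within 1 Mb of GPNMB, limma called 4 higher and 1 lower, or 22.7%, beside 19.8% of all tested genes. The median log2 change of the 22 genes was 0.10. IGF2BP3, an RNA-binding protein gene, rose from 12.1 ± 0.936 to 19.3 ± 1.01 FPKM (limma adjusted p = 0.0118). The pseudogene RPS2P32 was also called higher, and the pseudogene EEF1A1P6 fell by 0.50 on the log2 scale. The remaining calls, of IL6 and SNORD65C, are given as values only, since both genes passed the filter only through the 30 Gy libraries, where they were high. IL6, a cytokine gene 510.1 kb away, had means of 0.351 ± 0.0140 and 2.41 ± 0.285 FPKM (SD, n = 2) at 0 and 30 Gy. SNORD65C, a small nucleolar RNA gene, was listed at 0 in both 0 Gy libraries and stood at 2.21 ± 0.630 FPKM at 30 Gy. Over the neighbourhoods of all 9 genes, 20 of 135 neighbours rose and 9 fell, or 21.5% called beside 19.8% of all tested genes. That count includes genes that passed the filter through 1 dose only, among them IL6, SNORD65C and SRP68P1. SRP68P1, a pseudogene near FLCN, had means of 1.84 ± 0.489 FPKM at 0 Gy and 0 at 30 Gy.

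**Figure D3:**
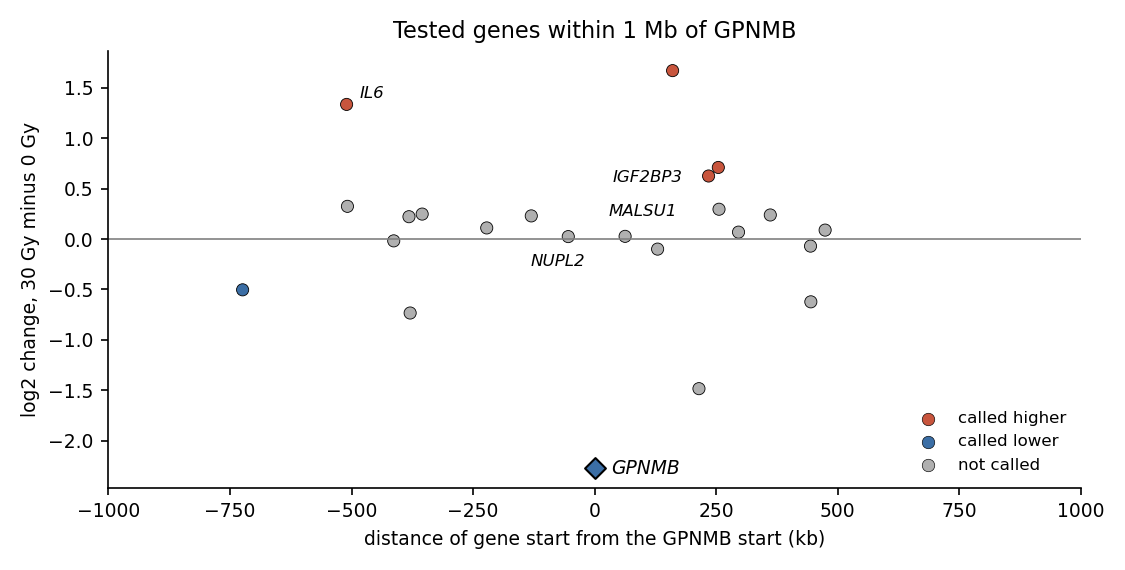
Log2 change (30 Gy minus 0 Gy) of the 22 tested genes within 1 Mb of GPNMB against the distance in kb of their start from the start of the deposited GPNMB interval. The diamond is GPNMB and colours give the limma call. GPNMB stands at -2.27 while its nearest neighbours on either side, NUPL2 and MALSU1, stand at 0.02 and 0.03.

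Genes that control the factors from the lysosome surface were mostly not called. Of 16 tested genes of mTORC1, the Rag GTPases and the Ragulator scaffold, 1 rose and 1 fell, beside 10.8% higher and 9.06% lower over all tested genes, with a median log2 change of -0.04 beside -0.00068. RRAGB, a Rag subunit that pairs with RagC or RagD, fell from 6.96 and 7.99 FPKM at 0 Gy to 3.47 and 4.01 at 30 Gy (log2 change -0.84 ± 0.10 SE, limma adjusted p = 0.0105). Both 30 Gy libraries were below both 0 Gy libraries. SLC38A9, the lysosomal arginine sensor, rose from 3.03 and 2.78 to 4.12 and 3.97 FPKM (log2 change 0.37, limma adjusted p = 0.0448). RRAGA, the close relative of RRAGB, stood at 46.3 and 43.8 FPKM at 0 Gy and 49.7 and 57.7 at 30 Gy and did not pass (adjusted p = 0.118). SLC38A9 was not called without either 30 Gy library, nor with median centring (adjusted p = 0.0506), quantile normalization (0.0519), the replicate block (0.0705) or no filter (0.131). RRAGB was not called with no filter (adjusted p = 0.0638).

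Of 15 tested genes of amino acid sensing upstream of the Rag GTPases (the GATOR and KICSTOR complexes, sestrins and other sensors), 1 rose and 1 fell. Over all tested genes 10.8% were higher and 9.06% lower. The median log2 change of the list was -0.03. SESN2, a stress-induced leucine sensor that restrains mTORC1, fell from 14.7 and 14.4 to 5.88 and 6.19 FPKM (log2 change -1.15 ± 0.07 SE, limma adjusted p = 0.00213). ITFG2, a KICSTOR subunit, rose from 1.58 and 1.52 to 2.65 and 2.55 FPKM (log2 change 0.50, limma adjusted p = 0.0335). Neither pair of doses overlapped, though ITFG2 was not called without either 30 Gy library, with the replicate block or with no filter. voom on recovered reads called 5 genes of this list lower and 1 higher, beside 4227 of 13379 genes called in either direction over the whole table.

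Of 21 tested phosphatases, kinases and 14-3-3 proteins that act on the factors, 2 rose and 0 fell in the limma test (5 rose and 2 fell at an unadjusted p under 0.05), beside 10.8% higher and 9.06% lower over all tested genes, with a median log2 change of 0.07. Both were 14-3-3 genes, whose products bind phosphorylated TFEB and TFE3: YWHAH rose from 37.2 and 36.2 to 64.6 and 58.8 FPKM (log2 change 0.73 ± 0.07 SE, limma adjusted p = 0.00600), and YWHAQ from 197 and 207 to 267 and 269 FPKM (log2 change 0.41, adjusted p = 0.0144). The calcineurin genes PPP3CA, PPP3CB, PPP3CC and PPP3R1, which encode the phosphatase that releases TFEB to the nucleus, had log2 changes of -0.20 to 0.15 and none was called. YWHAQ was not called without either 30 Gy library or with no filter. voom called 5 genes of this list higher and 2 lower, beside 4227 of 13379 genes called in either direction over the whole table.

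Lysosomal genes of the CLEAR network, the set known to be controlled by TFEB, include hydrolases, membrane proteins and subunits of the proton pump. Of 32 listed genes ATP6V0D2 was below the filter, and of the 31 tested genes 10 fell and 1 rose, beside 9.06% lower and 10.8% higher over all tested genes, and the median log2 change was -0.20. NPC1, which exports cholesterol from the lysosome, fell from 29.2 and 30.4 to 18.5 and 17.0 FPKM (limma adjusted p = 0.00601). CTSA, a protease that also protects lysosomal glycosidases, fell from 78.7 and 77.6 to 53.0 and 48.1 FPKM (adjusted p = 0.00816). SGSH, which degrades heparan sulfate, fell from 8.38 and 8.23 to 5.45 and 4.91 FPKM (adjusted p = 0.0121). These falls were smaller than that of GPNMB, between -0.36 and -0.72 on the log2 scale over the 10 genes. CTSD, the aspartic protease cathepsin D, fell from 185 and 194 to 139 and 116 FPKM, and GLA, alpha-galactosidase A, from 41.7 and 40.0 to 27.7 and 27.7. CLCN7, a chloride-proton exchanger, fell by 0.45, and GAA, ATP6V1A and NEU1 were also among the genes that fell. ATP6V1H, a subunit of the proton pump, was the gene that rose (9.83 and 9.04 to 12.5 and 11.7 FPKM, adjusted p = 0.0432). LAMP1, an abundant lysosomal membrane protein, stood at 50.5 and 48.0 FPKM at 0 Gy and 46.5 and 47.3 at 30 Gy and did not pass. ATP6V1H was not called without either 30 Gy library (adjusted p = 0.145 without replicate 1 and 0.0932 without replicate 2), with eBayes without trend (0.0666), with the replicate block (0.0511) or with no filter (0.119). NPC1, CTSA and GLA kept their calls in every fit that held both 0 Gy libraries. Fewer genes of the list fell in the fits without a 30 Gy library. The number that fell was 4 with no filter, 15 with a minimum of FPKM 5 and 17 with voom. With no filter, limma did not call SGSH (adjusted p = 0.0579), CTSD (0.113), CLCN7 (0.111), GAA (0.0807), ATP6V1A (0.129) or NEU1 (0.0818). CLCN7 was also not called with the replicate block (limma adjusted p = 0.0598), nor ATP6V1A with eBayes without trend (0.0692). The calls over the whole table moved as well. In either direction they were 604 of 30687 with no filter, 2620 of 7734 at FPKM 5 and 4227 of 13379 with voom, beside 2654 of 13379 in the main fit. This list was chosen with earlier results on lysosomal genes known.

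Of 9 tested autophagy and metabolic targets of the factors, 1 rose and 1 fell, with a median log2 change of -0.01. Over all tested genes 10.8% were higher and 9.06% lower. SQSTM1, the cargo receptor p62, fell from 231 and 234 to 120 and 113 FPKM (limma adjusted p = 0.00232), and MAP1LC3B, an LC3 protein of the autophagosome membrane, rose from 7.21 and 8.23 to 10.8 and 12.6 (adjusted p = 0.0289), a call lost without either 30 Gy library and with no filter. PPARGC1A, a coactivator of mitochondrial genes that lay below the filter and is named after its values were seen, had 78 and 50 reads at 0 Gy and 12 and 2 reads at 30 Gy. Its doses did not overlap.

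**Figure D4:**
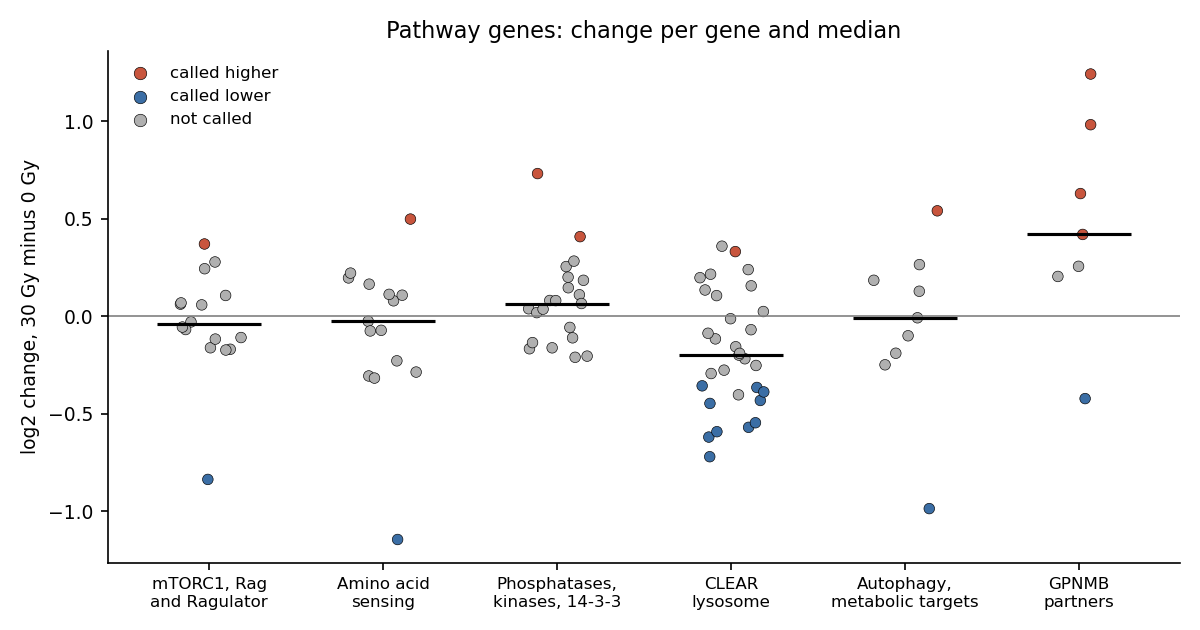
Log2 change (30 Gy minus 0 Gy) of each tested gene in 6 pathway lists, with the median as a line and the limma call as colour (red higher, blue lower, grey not called). The CLEAR lysosome list has 10 genes called lower and a median of -0.20, and the GPNMB partner list has 4 genes called higher.

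RNA levels of genes whose proteins bind or cleave GPNMB at the cell surface were also examined. Of 7 tested genes, 4 rose and 1 fell, beside 10.8% higher and 9.06% lower over all tested genes, with a median log2 change of 0.42. This list, too, was chosen with earlier results of these data known, so its counts are a description. CD44, a hyaluronan receptor, rose from 27.5 and 28.9 to 66.5 and 69.7 FPKM (log2 change 1.24 ± 0.06 SE, limma adjusted p = 0.00176). The integrin chains ITGA5 and ITGB1, which together form the main fibronectin receptor, rose from 11.9 and 12.8 to 26.6 and 24.3 FPKM (adjusted p = 0.00404) and from 141 and 146 to 220 and 226 FPKM (adjusted p = 0.00521). NRP1, a co-receptor for growth factors, rose by 0.42 on the log2 scale (adjusted p = 0.0451). SDC4, syndecan-4, fell from 40.8 and 40.1 to 31.7 and 28.2 FPKM (adjusted p = 0.0240). ADAM10, a protease that sheds GPNMB, stood at 9.12 and 9.71 and at 10.8 and 12.1 FPKM and did not pass (adjusted p = 0.0933). NRP1 was not called without either 30 Gy library, nor with quantile normalization (adjusted p = 0.0504), eBayes without trend (0.0721), the replicate block (0.0679) or no filter (0.153). SDC4 was not called without 30 Gy replicate 2 (adjusted p = 0.0758) or with no filter (0.0905).

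GPNMB is also abundant in melanocytes, macrophages and osteoclasts, so markers of those cells were examined in the same libraries. Of 12 melanocytic MITF targets, 2 passed the filter and limma called 0 of them (0 at an unadjusted p under 0.05, and 0 called with voom). TYR, the pigment enzyme tyrosinase, was at 0 reads in all 4 libraries, and PMEL, the closest relative of GPNMB, stood at 0.574 and 0.724 FPKM at 0 Gy and 0.707 and 0.500 at 30 Gy. TYRP1 stood at 1.52 and 1.43 FPKM at 0 Gy and 1.005 and 0.958 at 30 Gy without passing (limma adjusted p = 0.153). The summed level of 6 melanocyte markers was 2.68 to 2.81 FPKM at 0 Gy and 1.95 to 2.45 at 30 Gy. None of 8 macrophage markers passed the filter, and CD163, AIF1 and TYROBP were at 0. The sum of the 8 was 1.14 to 1.21 FPKM at 0 Gy and 1.37 to 1.45 at 30 Gy, but the markers differed in direction. CSF1R was higher at 30 Gy without overlap (0.502 and 0.365 FPKM, then 0.961 and 0.830). PTPRC (0.0815 and 0.0642, then 0.00683 and 0.0411) and CD14 (0.548 and 0.624, then 0.399 and 0.467) were lower without overlap. The doses overlapped for CD68 and MARCO. Of 4 osteoclast markers CTSK passed the filter and was not called, OCSTAMP and DCSTAMP were at 0, and the sum was 1.97 to 2.63 FPKM at 0 Gy and 1.21 to 2.19 at 30 Gy. The part of such cells in the GPNMB difference was not tested. The sum of 6 fibroblast markers, nearly all of it COL1A1, was 62.8 to 63.2 FPKM at 0 Gy and 72.4 to 78.7 at 30 Gy, with DCN at 0. COL1A1 and PDGFRB passed the filter, PDGFRB only through the 30 Gy libraries. limma called 0 of them. The count was 2 higher at an unadjusted p under 0.05 and 2 higher with voom. Both counts include PDGFRB, so nothing is read from them. PDGFRB, a growth factor receptor, stood at 0.652 and 0.717 FPKM at 0 Gy and 1.46 and 1.51 at 30 Gy. LUM, a matrix proteoglycan, had 1 and 5 reads at 0 Gy and 43 and 63 reads at 30 Gy, and COL3A1 had 1 read in each 0 Gy library and 4 and 6 reads at 30 Gy. COL1A2 had 1 read in the 4 libraries together. The doses did not overlap for COL1A1, PDGFRB, LUM and COL3A1, all higher at 30 Gy, of which LUM and COL3A1 lay below the filter. Over all tested genes the doses did not overlap for 65.2%, so nothing is read from this. The part of fibroblast-like cells in the GPNMB difference was not tested. The sums of 4 lung adenocarcinoma and 3 endothelial markers were under 0.16 FPKM in every library.

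The genes most like GPNMB across the 4 libraries were other genes with large falls. Likeness was the Euclidean distance between log2(FPKM + 1) profiles after each gene's own mean was subtracted, over 11124 other tested protein-coding genes, for which the median distance was 2.28. The nearest was NR0B1, an orphan nuclear receptor, at a distance of 0.235, with 87.0 and 81.6 FPKM at 0 Gy and 20.8 and 17.9 at 30 Gy. DDIT4, an inhibitor of mTORC1, followed at 0.329 and OSGIN1 at 0.340. RAP1GAP, which switches off the GTPase RAP1, lay at 0.413 and TNFRSF18, a receptor of the TNF family, at 0.424. With 4 libraries in 2 doses, this measure ranks genes mainly by the size of their difference between the doses.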

How the data were processed

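RNA sequencing libraries of a lung squamous carcinoma cell line, 2 per dose, were grouped as 0 Gy and 30 Gy by the dose in their library names. The authors deposited FPKM values for 58735 genes, with lengths and positions. Per the submitters' processing notes, hg38 was the build; aligner, counter and strand setting are unknown here, since no source used states them. All identifiers, names and positions matched GENCODE v29. FPKM times the deposited gene length gave whole multiples of a library's step for 100% of values above 0 (tolerance 0.001), from which reads were recovered; read counts, floors and intervals cover counting error only.

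Genes with at least 1 FPKM in at least 2 libraries were tested with limma 3.58.1 in R 4.3.3 on log2(FPKM + 1), using lmFit and a two-sided eBayes test with trend; this scale understates changes of low genes. P-values were Benjamini-Hochberg adjusted over all tested genes, with a threshold of 0.05. Residual degrees of freedom were 2, with 2.98 from the prior. An exact permutation test of these libraries cannot give a two-sided p under 0.333 and was not used. The code was tested on simulated data. Alternatives were a pseudocount of 0.1, quantile normalization, median centring, no filter, a minimum of FPKM 5, eBayes without trend, a replicate block, leaving out each library, and limma's voom on recovered reads.

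The 9 members and all gene lists were chosen with earlier results of these data known. Named genes are the members, up to 6 called genes per pathway list (otherwise the 2 largest changes), called neighbours of GPNMB and the nearest on each side, the 5 genes most like GPNMB, and genes that complete a count, which were chosen after their values were seen. Not every gene in a count is reported by name here. Promoter sequences are from RefSeq (GRCh38.p14).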

Additional observations from a re-analysis of the deposited data

How the results depend on the processing

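The log2 change of GPNMB stayed between -2.62 (voom on recovered reads) and -2.25 (without 30 Gy replicate 2) over 12 alternatives. Since GPNMB was chosen on this contrast, nothing is read from its calls; the count of members called was 0 to 1 when libraries were left out in turn. The number of genes called over the whole table was 604 with no filter, where 30687 genes were tested, 4227 with voom, and 0 to 898 with libraries left out in turn. MITF turned to -0.10 without 0 Gy replicate 1 (-0.10 to 0.15 over the libraries left out) and FLCN to -0.041 without 30 Gy replicate 1 (-0.041 to 0.18); the cause was not tested, and both were uncalled throughout. The other 5 tested members kept their direction and stayed uncalled in each alternative that tested them, but their sizes rested on single libraries: with each left out in turn, TFEB was 0.086 (without 30 Gy replicate 1) to 0.41 (without 30 Gy replicate 2), TFE3 -0.31 (without 30 Gy replicate 1) to -0.13 (without 30 Gy replicate 2), FNIP1 -0.30 (without 0 Gy replicate 1) to -0.11 (without 0 Gy replicate 2), FNIP2 -0.30 (without 30 Gy replicate 1) to -0.11 (without 30 Gy replicate 2), and RRAGC -0.16 (without 0 Gy replicate 1) to -0.065 (without 0 Gy replicate 2). Of the 24 pathway genes called, none changed direction in any alternative. The number still called was 10 with no filter, 13 and 10 without 30 Gy replicates 1 and 2, 19 with the replicate block, and 21 to 24 with the other scalings, pseudocount, trend setting and voom; 22 of 22 tested were called at FPKM 5. With the replicate number as a block, 1926 genes were called. Same-numbered libraries did not deviate together (r = -0.03 across 13379 genes), and the labels state no pairing. Depth limits RRAGD, with 2 to 11 reads per library, and TFEC, with 2 to 4. No alternative gives values on the isoforms of MITF or TFEB.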
